A study of Danio rerio with 17 samples.

Results

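Livers of adult zebrafish collected 7 days post-cryoinjury (7 dpci) were compared with livers collected 1 day post-cryoinjury (1 dpci) by bulk RNA-seq. The comparison holds 4 libraries at each time point, chosen by the time in their labels, which are 8 of the 17 libraries of the series, and no sham-operated library enters it. It asks which changes of the first day had been undone by day 7 and which liver functions had returned. Cryoinjury kills a region of the liver by contact of a frozen probe with the ventral lobe through a small skin incision, and sham-operated fish were not frozen. The methods name the line as Tg(fabp10a:NLS-mCherry), in which the hepatocyte promoter of fabp10a drives a red nuclear reporter, and this transgene is shared by the sham, 1, 3 and 7 dpci fish. The paper describes sequencing of both the injured part of the ventral lobe and tissue of the contralateral lobe. The labels give only the tissue (liver), the treatment (sham or CI) and the time, and name neither lobe nor sex. Which part of the liver a library holds is therefore not known here. A difference of lobe between libraries cannot be told apart from a difference of time. Each library came from livers that were pooled, and the sources differ on whether the libraries of 1 time point are separate pools or technical replicates. The p-values therefore measure the spread between these libraries, which may be technical. The 5 sham-operated libraries are set beside the comparison as the uninjured level, and the 4 libraries at 3 dpci entered the filter, the scaling, the principal components and the shared estimate of the spread but no contrast.

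Hepatocytes make most of the plasma proteins, synthesise bile acids and carry the enzymes that break down amino acids, store and release glucose and clear foreign compounds. Injured cells pause much of this work. They switch on immediate early transcription factors and acute phase genes, and under amino acid or protein-folding stress they raise the targets of Atf4, among them the enzymes that charge tRNAs, together with chaperones and the proteasome, which degrades proteins marked for removal. The zebrafish liver can regrow lost tissue by division of the remaining hepatocytes.

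The total counts over the 8513 entries of the deposited table ranged from 4743533 to 5466939 per library at 1 dpci, from 5962480 to 6745858 at 7 dpci and from 4804488 to 6800961 in sham. Mitochondrially encoded genes took 28.7 to 39.2% of the counts at 1 dpci, 30.5 to 48.7% at 7 dpci and 43 to 48.2% in sham. The scaling factors of the trimmed mean of M-values (TMM) were 1.199 to 1.687 at 1 dpci and 0.7736 to 1.099 at 7 dpci. Levels are given below as TMM-scaled CPM, counts scaled to a common library size, for replicates 1, 2, 3 and 4 in that order, and numbers joined by a dash are the range over the 4 libraries of a time point. Values in parentheses after a gene are its log2 fold change, 7 dpci minus 1 dpci, ± SE and its adjusted p. The detection floor of 3 counts in a library came on average to 0.421 CPM at 1 dpci and 0.503 CPM at 7 dpci, which covers counting error only. Replicates 1 and 2 of 1 dpci were close to each other (r = 0.965 across genes) and so were replicates 3 and 4 (r = 0.969), whereas all other pairs of 1 dpci libraries lay between 0.882 and 0.899. The counts still differed by more than sampling noise within both close pairs, with a chi-square per degree of freedom of 9.19 and 13.7. That excess does not show that the members of a pair are separate pools, since technical replicates can exceed sampling noise too. They were kept as 4 libraries with this question open. The 7 dpci libraries were less alike (r from 0.776 to 0.862). The column headings of 7 dpci replicates 1 and 3 carry the letter R and those of replicates 2 and 4 do not, which the sample labels do not explain. On the first principal component of all 17 libraries, which held 32.2% of the variance, 7 dpci replicate 1 stood apart at 4.3, while the other 7 dpci libraries lay between -52.2 and -36.1 and the 1 dpci libraries between 63.5 and 93.3. The first component of the sham libraries ran from -52.8 to -14.4.

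Between day 1 and day 7, 39 of 71 enzymes of amino acid breakdown and 11 of 18 hepatocyte markers rose, while 16 of 22 tRNA charging enzymes and 31 of 48 proteasome subunits fell. Of 8412 genes tested by the quasi-likelihood method of edgeR, with p values adjusted after Benjamini and Hochberg, 1226 (14.6%) were higher and 711 (8.45%) lower at 7 dpci at an adjusted p of at most 0.05. Counts of list members that rose or fell use this adjusted p alone, so both shares are the background to set beside them. Below, "called" genes moved by 1.5 log2 units or more as well, and 848 genes (10.1%) were called higher and 347 (4.13%) lower. All 4 libraries of 7 dpci lay above all 4 of 1 dpci for 1167 genes (13.9%) and below them for 1010 (12%). Of the called genes, 645 of the higher and 302 of the lower ones were separated in this way. The higher calls made up 71% of the total under TMM scaling and 34.8% under column totals (453 higher and 847 lower), which move the median change over all genes, on the log2 scale, from 0.085 to -0.48. Without 7 dpci replicate 1, 996 genes were called higher and 608 lower, and with the 1 dpci libraries summed in their 2 close pairs 303 and 185.

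**Figure D1:**
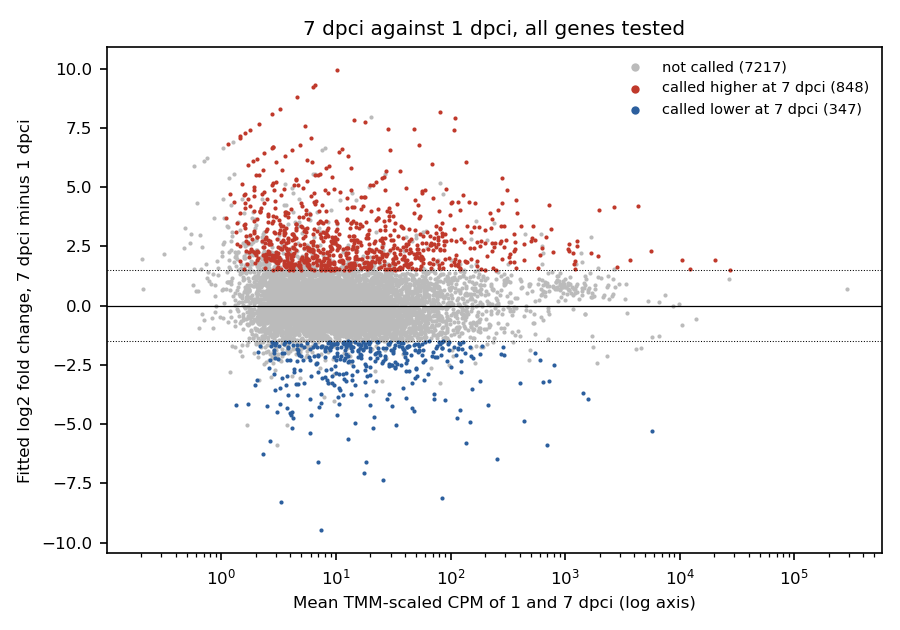
Every gene tested is a point, placed by its mean TMM-scaled CPM over the 1 and 7 dpci libraries (x axis, log scale) and its fitted log2 fold change, 7 dpci minus 1 dpci (y axis), and dotted lines mark a log2 fold change of 1.5 in either direction. The 848 genes called higher at 7 dpci (red) outnumber the 347 called lower (blue) under TMM scaling, whereas column totals turn that order, with 453 and 847.

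Most of the genes called between day 1 and day 7 lay, at day 7, within 1 log2 unit of their level in sham livers. These counts set contrasts that share libraries side by side and carry no test. The genes were also picked in part by their 1 dpci level, which by itself favours a 7 dpci level nearer to sham. Against sham, 377 genes (4.48%) were called higher and 826 (9.82%) lower at 1 dpci. Of the 377, 215 (57%) were called lower again at 7 dpci, and of the 826, 618 (74.8%) were called higher again. Among the 848 genes called higher from day 1 to day 7, 40 lay within 1 log2 unit of sham at 1 dpci and 716 at 7 dpci. Among the 347 called lower, the same count went from 45 to 270. The 848 had a median log2 fold change of 2.49 between the time points, of -2.31 at 1 dpci against sham and of 0.20 at 7 dpci against sham, and the 347 had medians of -2.15, 1.96 and -0.30. The 4 libraries of 7 dpci overlapped the sham libraries for 835 of the 848 and for 343 of the 347. How many of all genes tested overlapped sham, or lay within 1 log2 unit of it, was not counted. These counts therefore do not set the called genes apart from other genes. In a direct test of 7 dpci against sham, edgeR's quasi-likelihood test passed 0 genes at an adjusted p of 0.05 and 764 at an unadjusted p of 0.05, and DESeq2, added after seeing the data, passed 2 higher and 3 lower. A p that misses the threshold does not show that 7 dpci livers equalled sham livers.

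The 162 acute rises that were not called back divide by their level at 7 dpci. Of them, 106 lay within 1 log2 unit of sham and 23 remained at least 1.5 log2 units above it. Of the 208 acute falls that were not called back, 132 lay within 1 log2 unit of sham and 38 remained at least 1.5 below it. The 7 dpci libraries differed in how many of the acute genes were at a sham level. In replicate 1, 207 of the 377 acutely higher genes (54.9%) were inside the range of the 5 sham libraries or beyond it on the far side from 1 dpci, against 284 (75.3%) in replicate 2, 331 (87.8%) in replicate 3 and 271 (71.9%) in replicate 4. For the 826 acutely lower genes these counts were 539 (65.3%), 660 (79.9%), 714 (86.4%) and 621 (75.2%). The share of all genes tested that met this 1-sided rule was not counted. The shares therefore compare the libraries with each other and do not measure the extent of a return. Replicate 1 also held the most genes still as far from sham as the mildest 1 dpci library, 100 (26.5%) of the acutely higher and 129 (15.6%) of the acutely lower ones.

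**Figure D2:**
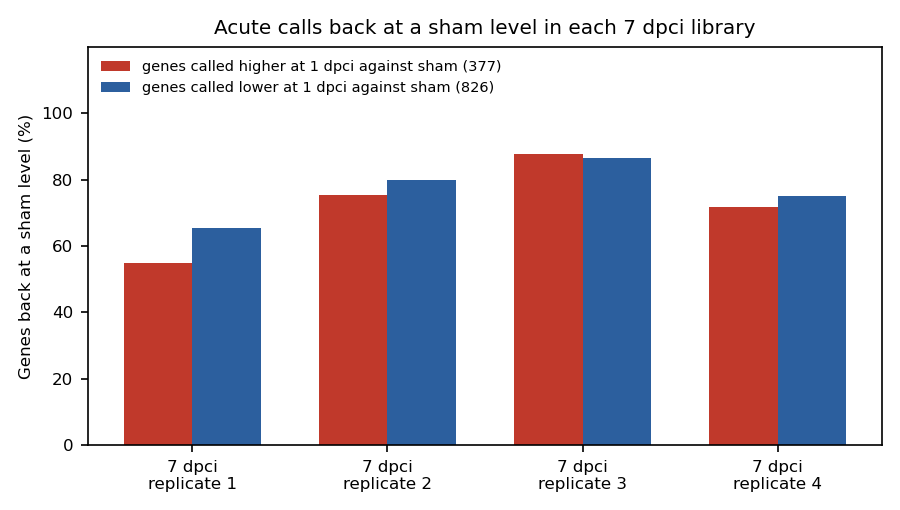
Bars give, for each 7 dpci library, the percentage of the 377 genes called higher (red) and of the 826 called lower (blue) at 1 dpci against sham that were back at a sham level, which is inside the range of the sham libraries or past it on the side away from 1 dpci. The lowest bars are those of replicate 1 (54.9% and 65.3%) and the highest those of replicate 3 (87.8% and 86.4%). The same share over all genes tested was not counted.

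Among genes for proteins that hepatocytes secrete or carry more rose than fell. Of 18 hepatocyte markers tested, 11 were higher and 2 lower at 7 dpci, with a median log2 fold change of 1.38 beside 0.085 over all genes. Their summed level was 59620 to 74940 CPM at 1 dpci, 140400 to 172200 CPM at 7 dpci and 123200 to 230700 CPM in sham, so the labelled tissue carried its defining transcripts at every time. In bulk RNA, fewer hepatocytes and less of these RNAs per hepatocyte cannot be told apart. The gene fabp10a, the liver fatty acid binding protein whose promoter drives the reporter, was at 5804, 5517, 7358 and 6624 CPM at 1 dpci and 14720, 25860, 24540 and 8768 CPM at 7 dpci. All 7 dpci libraries lay above all 1 dpci libraries, replicate 4 least, and the log2 fold change was 1.55 ± 0.49, adjusted p = 0.0332. Without any 1 of the 1 dpci libraries, or without 7 dpci replicate 2 or 3, fabp10a no longer passed, at adjusted p values between 0.0598 and 0.0844. The plasma retinol carrier rbp4 was at 57.9, 16.4, 89.3 and 125 CPM at 1 dpci and 328, 2320, 1480 and 1318 CPM at 7 dpci. Its 7 dpci level was lowest in replicate 1 and the groups did not overlap, with a log2 fold change of 4.24 ± 0.71, adjusted p = 0.000934. The fetuin gene ahsg1 went from 475–894 to 2396–3960 CPM (2.09 ± 0.42, adjusted p = 0.00282), and transferrin, tfa, the plasma iron carrier, from 15150–18840 to 30200–45480 CPM (1.14 ± 0.26, adjusted p = 0.00644). Fibrinogen beta, fgb, a clotting protein made in excess in the acute phase, ran the other way, from 7081–12040 to 3581–4209 CPM (-1.29 ± 0.25, adjusted p = 0.00253). With the 1 dpci libraries summed in pairs, 2 markers were higher and 2 lower.

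Lipoprotein and defence proteins of the plasma rose in part. Of 19 genes of apolipoproteins and lipoprotein assembly, 9 rose and 1 fell (median 1.3), and of 54 genes of complement and coagulation, 21 rose and 4 fell (median 0.95). The summed level of the apolipoprotein list was 22560 to 42840 CPM at 1 dpci, 84210 to 115100 CPM at 7 dpci and 107400 to 186400 CPM in sham. The sums of complement and coagulation overlapped, at 33310 to 53300 CPM, 26550 to 49140 CPM and 30870 to 43030 CPM, so that list's total did not rise from a level below sham. Summing the 1 dpci libraries in pairs left 3 and 10 higher, and under column totals 6 and 13. Apolipoprotein apoc1, carried on plasma lipoproteins, was at 4388, 4247, 4045 and 4520 CPM at 1 dpci and 14720, 16120, 19720 and 15470 CPM at 7 dpci. The groups were far apart and the log2 fold change was 1.94 ± 0.31, adjusted p = 0.000774, yet every 7 dpci library but replicate 3 stayed below the sham range of 18950 to 32030 CPM. The cholesteryl ester transfer protein cetp was at 4.09, 5.63, 6.08 and 7.16 CPM at 1 dpci and 32.5, 234, 171 and 106 CPM at 7 dpci, lowest of the 7 dpci libraries in replicate 1, with a log2 fold change of 4.56 ± 0.89, adjusted p = 0.00244. The fall belonged to lcat, the plasma enzyme that esterifies cholesterol, which went from 38.3–64.3 to 7.78–15.4 CPM (-1.92 ± 0.35, adjusted p = 0.00153). The protease inhibitor a2ml, related to alpha-2-macroglobulin, was at 15.2, 9.32, 18.3 and 18.3 CPM at 1 dpci and 303, 254, 469 and 212 CPM at 7 dpci. The groups were far apart, and all 7 dpci values but that of replicate 3 were inside the sham range of 136 to 318 CPM (log2 fold change 4.33 ± 0.56, adjusted p = 0.000334). The complement protease masp2, which starts the lectin pathway, rose by 2.91 ± 0.4, adjusted p = 0.000357, and the clotting factor gene f7i by 3.36 ± 0.47, adjusted p = 0.000357. The pore-forming complement gene c9 did not pass, at 882, 1031, 2181 and 2397 CPM at 1 dpci and 7498, 844, 2764 and 3178 CPM at 7 dpci (adjusted p = 0.122), and its 7 dpci libraries spread on either side of the 1 dpci ones.

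Most enzymes of amino acid breakdown rose. Of 71 enzymes of amino acid breakdown and the urea cycle, 39 rose and 1 fell, with a median log2 fold change of 1.9, after a median of -2.12 at 1 dpci against sham and before -0.29 at 7 dpci against sham. With the 1 dpci libraries summed in pairs 25 still passed as higher. The gene miox, listed with these enzymes though its product opens the inositol ring, was at 5.92, 4.04, 2.6 and 3.52 CPM at 1 dpci and 226, 244, 442 and 168 CPM at 7 dpci. No 7 dpci library was below 168 CPM and no 1 dpci library above 5.92 CPM, and the log2 fold change of 6.07 ± 0.66, adjusted p = 8.40e-05, was among the 10 largest with a mean of at least 10 CPM. The gene aldh6a1, of valine breakdown, was at 31.5, 28.5, 37.4 and 29.4 CPM at 1 dpci and 246, 326, 338 and 373 CPM at 7 dpci, tight in both groups and without overlap (3.34 ± 0.4, adjusted p = 0.000201). Histidine ammonia-lyase, hal, went from 2.39–4.22 to 33.7–94.7 CPM (4.29 ± 0.54, adjusted p = 0.000322). Tyrosine breakdown showed the same direction at several steps. Its first enzyme, tat, was at 2.88, 4.04, 3.15 and 5.53 CPM at 1 dpci and 36.5, 51.2, 101 and 26.8 CPM at 7 dpci. All 7 dpci values of tat were above the sham range of 20.7 to 24.5 CPM as well, and the rise was 3.78 ± 0.61, adjusted p = 0.000808. The next enzyme, hpda, was at 356, 301, 207 and 259.6 CPM at 1 dpci and 3810, 2230, 8599 and 5433 CPM at 7 dpci (4.16 ± 0.58, adjusted p = 0.000357). Phenylalanine hydroxylase, pah, which makes tyrosine, was at 10.9, 7.56, 81.2 and 56.6 CPM at 1 dpci and 97.8, 148, 246 and 134 CPM at 7 dpci, so 1 dpci replicates 1 and 2 lay well below replicates 3 and 4 (2 ± 0.66, adjusted p = 0.0399). The single fall was prodha, the first enzyme of proline breakdown, at 141, 108, 70.8 and 78.6 CPM at 1 dpci and 24.3, 14.3, 38.5 and 4.77 CPM at 7 dpci (-2.29 ± 0.73, adjusted p = 0.0342).

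In bile acid and drug metabolism more genes rose than fell too. Of 19 genes of bile acid synthesis and transport 10 rose and 1 fell (median 1.95), of 31 cytochrome P450 genes of families 1 to 4 13 rose and 1 fell (median 1.56), and of 36 conjugation enzymes 15 rose and 2 fell (median 1.3). The summed level of the bile acid list went from 529–957 to 1334–2867 CPM and that of the conjugation list from 863–933 to 2108–4749 CPM. The sums of the P450 list overlapped, at 1363–1799 CPM at 1 dpci and 1490–2593 CPM at 7 dpci. The bile salt export pump abcb11b was at 8.8, 11.9, 49.1 and 47.7 CPM at 1 dpci and 151, 239.6, 282 and 109.8 CPM at 7 dpci. The lowest 7 dpci library was above the highest 1 dpci library, and within 1 dpci replicates 1 and 2 were the lower pair (2.73 ± 0.51, adjusted p = 0.00186). The very long-chain acyl-CoA synthetase slc27a2a went from 14.1–51.9 to 186–634 CPM (3.67 ± 0.67, adjusted p = 0.00166), and scp2a, a sterol carrier of peroxisomes, from 159–219.7 to 460.5–640.1 CPM (1.57 ± 0.27, adjusted p = 0.00102). The rate-limiting enzyme of bile acid synthesis, cyp7a1, was at 0.91, 0, 0 and 0 CPM at 1 dpci and 0.305, 18.1, 1.5 and 63.7 CPM at 7 dpci. It was called higher (6.5 ± 1.82, adjusted p = 0.0183), but the groups overlapped, since 7 dpci replicate 1 was under the 3-count floor and replicate 4 carried most of the signal, without which the adjusted p was 0.0619. The higher 7 dpci values of cyp7a1 were those of replicates 2 and 4, headed without the letter R. The enzyme cyp8b1, which sets the kind of bile acid made, did not pass (log2 fold change 0.61 ± 0.39, adjusted p = 0.264). The fall in the bile acid list was the nuclear receptor gene nr0b2b, at 41.7, 30.2, 4.12 and 4.65 CPM at 1 dpci and 3.81, 0.492, 0 and 0 CPM at 7 dpci (-4.16 ± 1.32, adjusted p = 0.033). Its relative nr0b2a went the other way, from 0.303–2.06 to 0.61–29.2 CPM with overlapping groups (3.14 ± 1.1, adjusted p = 0.049).

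Among the cytochrome P450 genes, cyp1a, the enzyme induced by aromatic pollutants, was at 3.94, 3.16, 57.4 and 57.6 CPM at 1 dpci and 138, 344, 237 and 154 CPM at 7 dpci. Its 1 dpci libraries split into a low and a higher pair and both lay under all 7 dpci libraries (2.83 ± 0.75, adjusted p = 0.0141). The gene cyp2ad2 was at 1.36, 5.1, 15.1 and 15.8 CPM at 1 dpci and 115, 297, 198 and 157 CPM at 7 dpci (4.35 ± 0.6, adjusted p = 0.000357). Its neighbour in the family, cyp2ad6, was at or under 0.176 CPM in every 1 dpci library and at 2.3–17.3 CPM at 7 dpci, at least 16.9-fold higher against the floor of 3 counts per library. How reads that fit several near copies were treated is not given in the sources used here, so the split between such cyp2ad genes is uncertain. Of the conjugation enzymes, the glutathione transferase gstz1, which also acts in tyrosine breakdown, went from 19.3–41.7 to 184–507 CPM (3.32 ± 0.52, adjusted p = 0.000688). Its relatives rose as well, gstr from 119–191 to 602–1940 CPM (2.91 ± 0.57, adjusted p = 0.00263) and gstp1 from 28.5–103 to 223–704 CPM (2.65 ± 0.53, adjusted p = 0.00294). The glucuronosyltransferase ugt1a7 was at 6.67, 4.22, 29.7 and 20.5 CPM at 1 dpci and 78, 138, 105 and 146 CPM at 7 dpci, again with 1 dpci replicates 1 and 2 lowest (2.93 ± 0.77, adjusted p = 0.0137). With the 1 dpci libraries summed in pairs, 3 bile acid, 6 P450 and 6 conjugation genes were higher.

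Sugar and lipid metabolism changed in part. Of 39 genes of glycolysis, gluconeogenesis and glycogen, 12 rose and 2 fell (median 0.88). The gene ugp2a, whose enzyme makes the sugar donor of glycogen, was at 29.4, 35.3, 28.2 and 27 CPM at 1 dpci and 240.2, 426, 825 and 472 CPM at 7 dpci. The groups did not overlap (4.03 ± 0.53, adjusted p = 0.000343). The gluconeogenic phosphatase fbp1a, low at both times, went from 0.753–1.76 to 1.98–13 CPM (3.13 ± 0.52, adjusted p = 0.000893). The gluconeogenic genes pck1 (0.23 ± 0.84, adjusted p = 0.868) and g6pca.1 (0.47 ± 0.41, adjusted p = 0.419) did not pass. Nor had they passed at 1 dpci against sham, at -0.045 and -0.0149 (adjusted p = 0.973 and 0.983). Glucokinase, gck, did not pass between the time points (1.51 ± 1.46, adjusted p = 0.474). At 1 dpci against sham it was called lower (-5.275, adjusted p = 0.0303), with a wide sham range of 1.62 to 1153 CPM. Of 35 genes of sterol synthesis and lipogenesis 9 rose and 1 fell (median 1.71). The LDL receptor ldlra went from 2.46–5.86 to 14–84.5 CPM (3.37 ± 0.54, adjusted p = 0.000756) and the elongase elovl2 from 9.54–12.6 to 25.6–402 CPM (4.38 ± 0.93, adjusted p = 0.00414). The triglyceride synthase dgat1b fell from 23.1–96.7 to 3.77–18.9 CPM (-2.62 ± 0.61, adjusted p = 0.00714). Of 53 genes of fatty acid oxidation and the peroxisome 15 rose and 0 fell, and their median of 0.48 turned to -0.07 under column totals. Of 26 hepatocyte transcription factors 6 rose and 0 fell. The regulator of amino acid and glucose metabolism klf15 led them, at 4.09, 8.97, 6.4 and 7.66 CPM at 1 dpci and 48.8, 99.95, 65.6 and 58.4 CPM at 7 dpci (3.33 ± 0.47, adjusted p = 0.000382). Next by p were hnf4g (2.42 ± 0.45, adjusted p = 0.00195) and nr5a2, a regulator of bile acid genes (1.44 ± 0.33, adjusted p = 0.00656). With the 1 dpci libraries summed in pairs 5 sugar, 1 sterol and lipogenesis, 4 fatty acid oxidation and 2 transcription factor genes were higher, and under column totals 7, 4, 5 and 3.

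**Figure D3:**
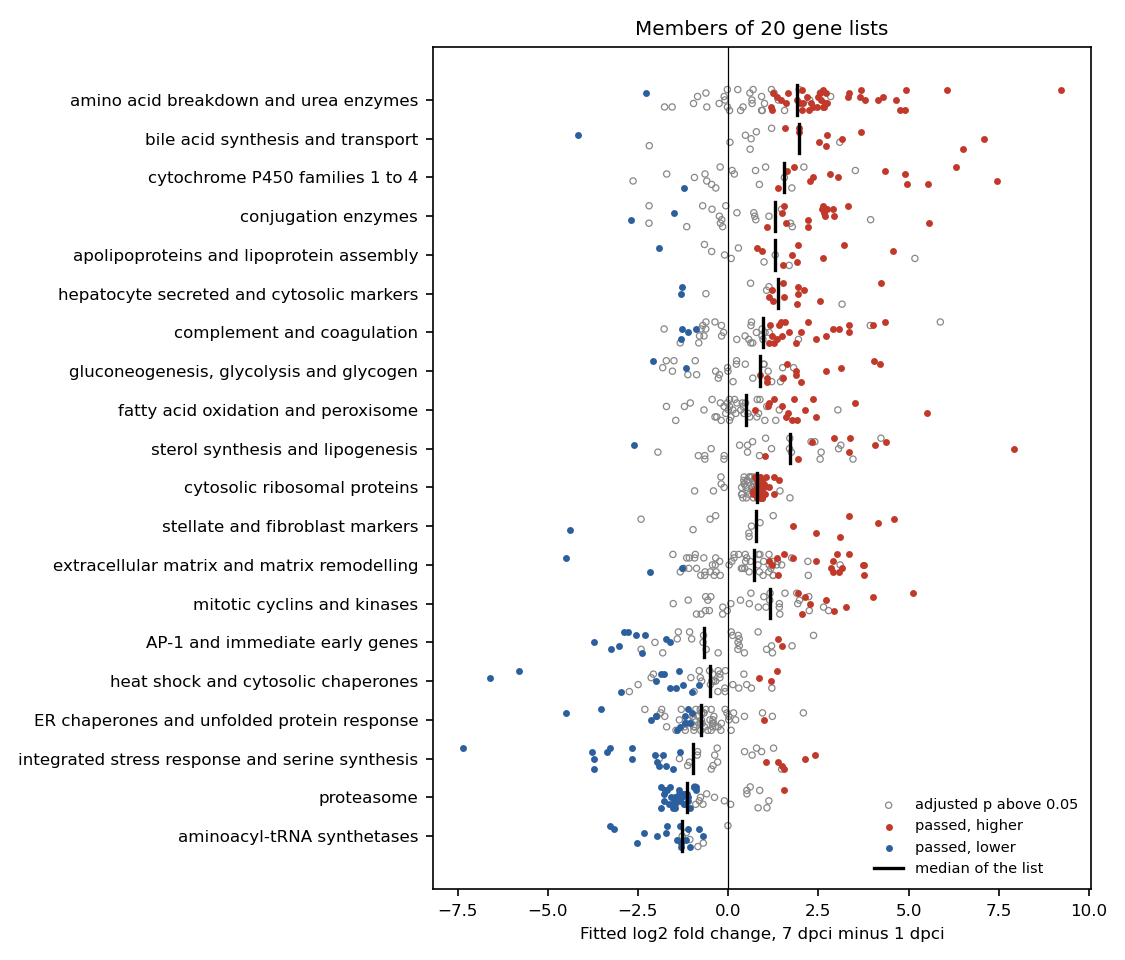
Every tested member of 20 gene lists is a point at its fitted log2 fold change, 7 dpci minus 1 dpci (x axis), red where it was higher and blue where it was lower at an adjusted p of at most 0.05 and open where it did not pass, and black bars are list medians. Amino acid enzymes hold 39 red points of 71 and the proteasome 31 blue points of 48, and under column totals the median of fatty acid oxidation and the peroxisome turns to -0.07.

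In the integrated stress response, through which cells cut general translation and raise Atf4 targets, more genes fell than rose. Of 38 genes of this response and of serine synthesis 15 fell and 6 rose (median -0.97), from a median of 0.94 at 1 dpci against sham to -0.17 at 7 dpci against sham. Its transcription factor atf4a was at 217, 250.5, 137 and 120.3 CPM at 1 dpci and 71.4, 37.2, 36.3 and 60.8 CPM at 7 dpci. Every 7 dpci value was below every 1 dpci value and the fall was -1.82 ± 0.31, adjusted p = 0.00104. The related factor atf3 was at 137, 156, 98.5 and 138 CPM at 1 dpci and 17.6, 3.28, 8.12 and 11.2 CPM at 7 dpci (-3.71 ± 0.73, adjusted p = 0.00269). The serine synthesis enzyme psat1 was at 34.7, 41.3, 66 and 61 CPM at 1 dpci and 0, 0.821, 0.214 and 0.14 CPM at 7 dpci. It went from well expressed to at or near 0 (-7.36 ± 1.06, adjusted p = 0.000427). In 7 dpci replicates 1, 3 and 4 psat1 was under the 3-count floor. Its lowest sham level, 0.369 CPM, was also under the mean sham floor of 0.68 CPM, so these levels cannot be ordered. The amino acid transporter chain slc3a2b went from 17.1–26.2 to 0–3.36 CPM (-3.77 ± 0.64, adjusted p = 0.00103), and asparagine synthetase, asns, from 23.2–26.2 to 2.13–15.9 CPM (-1.92 ± 0.51, adjusted p = 0.0146).

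Of 22 aminoacyl-tRNA synthetases, the enzymes that load amino acids onto tRNAs, 16 fell, 0 rose and 6 did not pass (median -1.29). The lysine enzyme, kars, was at 675, 971, 686 and 622 CPM at 1 dpci and 106, 75.5, 59.8 and 62.5 CPM at 7 dpci. It had the smallest p of any gene called lower with a mean of at least 10 CPM, a fall of -3.28 ± 0.32, adjusted p = 4.92e-05. The asparagine enzyme nars went from 299.8–368 to 23.3–58 CPM (-3.16 ± 0.46, adjusted p = 0.000502) and eprs, for glutamate and proline, from 135–177 to 19–39.3 CPM (-2.33 ± 0.35, adjusted p = 0.00056), inside its sham range of 15.5 to 55.4 CPM. Of 48 proteasome subunits, 31 were lower and 1 higher (median -1.13). The ATPase subunit psmc3 was at 63.2, 65.9, 65.5 and 63.3 CPM at 1 dpci and 29.1, 14.6, 16.2 and 17.3 CPM at 7 dpci, nearly constant at 1 dpci and highest at 7 dpci in replicate 1 (-1.74 ± 0.3, adjusted p = 0.00119). The ubiquitin receptor adrm1 went from 17.2–21.6 to 4.06–7.48 CPM (-1.85 ± 0.26, adjusted p = 0.00039) and the catalytic subunit psmb7 from 99.97–131 to 26.7–44.3 CPM (-1.78 ± 0.34, adjusted p = 0.0022). With the 1 dpci libraries summed in pairs, 8 synthetases and 14 proteasome subunits were lower, and 10 genes of the stress response list.

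Chaperones of the endoplasmic reticulum (ER) depended on 1 library. Of 67 genes of ER folding and the unfolded protein response 11 fell (16.4%, beside 8.45% of all genes tested) and 1 rose (median -0.76). Without 7 dpci replicate 1 the counts were 37 and 1. The main ER chaperone hspa5 was at 2646, 2763, 1976 and 2374 CPM at 1 dpci and 3537, 130.1, 212 and 81.1 CPM at 7 dpci. Replicate 1 of 7 dpci was above every 1 dpci library and the other 7 dpci libraries were far below them, so the gene did not pass (-1.3 ± 1.07, adjusted p = 0.397). Without 7 dpci replicate 1 the log2 fold change of hspa5 was -4.11 (adjusted p = 0.00703). The folding enzyme pdia6 did separate the groups, at 294, 369.5, 220 and 245 CPM at 1 dpci and 29.3, 38.1, 15.8 and 14 CPM at 7 dpci (-3.53 ± 0.65, adjusted p = 0.00183). The stress transcription factor xbp1 went from 624–1253 to 149.8–263 CPM (-2.01 ± 0.44, adjusted p = 0.00469). Of 43 heat shock and cytosolic chaperone genes 12 fell and 3 rose (median -0.52), and 5 were lower with the summed pairs and 17 under column totals. The inducible hsp90aa1.2 was at 263, 92.3, 362 and 345 CPM at 1 dpci and 6.41, 2.79, 5.56 and 4.21 CPM at 7 dpci. All 7 dpci libraries were also under the sham range of 7.27 to 71.9 CPM (-5.8 ± 0.78, adjusted p = 0.000343). The co-chaperone stip1 went from 62.9–91.8 to 17.4–24.3 CPM (-1.88 ± 0.35, adjusted p = 0.00183). The inducible hsp70.3 was at 19.6, 0.352, 21.8 and 13.3 CPM at 1 dpci and 0, 0.328, 0 and 0.14 CPM at 7 dpci, low at 1 dpci in replicate 2 alone, and its 7 dpci level was at least 27.35-fold lower against the 3-count floor.

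The translation machinery was divided. Cytosolic ribosomal proteins rose in 29 of 74 cases and fell in 0, with a median of 0.79, but under column totals 2 were higher and 1 lower, and none was called at the fold of 1.5. The gene rpl6 of the large subunit went from 449.9–524 to 1148–1616 CPM (1.4 ± 0.34, adjusted p = 0.00965) and rplp2, of the stalk that binds elongation factors, from 463–568 to 854–1492 CPM (1.27 ± 0.28, adjusted p = 0.00548). Genes that build ribosomes leaned the other way, with 14 of 88 lower (15.9%) and 5 higher (5.68%), and a median of -0.74. Among all genes tested 8.45% were lower and 14.6% higher. Without 7 dpci replicate 1, 37 of the list were lower. Within that list the directions differed, as rpf2, of large subunit assembly, fell by 1.07 ± 0.28 on the log2 scale (adjusted p = 0.0141) while pno1, of small subunit assembly, rose from 70.7–83.7 to 129.7–218 CPM (1.25 ± 0.28, adjusted p = 0.00557). Of 92 genes of the mitochondrial ribosome and import 12 fell (13%, beside 8.45% of all genes tested) and 0 rose (median -0.67). Without 7 dpci replicate 1, 30 were lower. The median of this list was 0.14 at 1 dpci against sham and -0.43 at 7 dpci against sham. By its median it thus did not fall from a raised level. Among the 12 was the mitochondrial co-chaperonin hspe1, from 182–238 to 33.8–97 CPM (-2 ± 0.41, adjusted p = 0.00345). Of 77 genes of secretory vesicle coats 13 fell (16.9%) and 1 rose (1.3%), with a median of -0.61, and without 7 dpci replicate 1 31 and 0. Under column totals 33 genes of the mitochondrial list and 28 of the vesicle list were lower, and with the 1 dpci libraries summed in pairs 3 and 2.

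**Figure D4:**
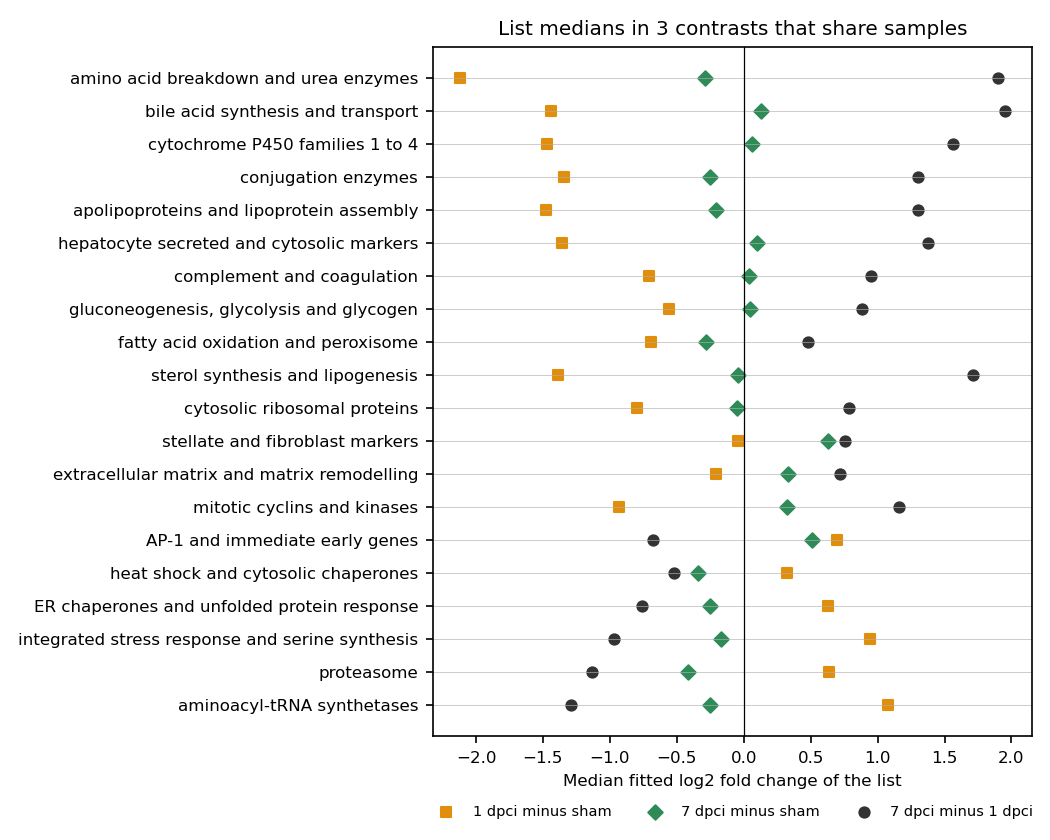
For each of 20 gene lists the median fitted log2 fold change (x axis) is shown for 7 dpci minus 1 dpci (circle), 1 dpci minus sham (square) and 7 dpci minus sham (diamond), 3 contrasts that share libraries, so that opposite signs of circle and square carry no test. The proteasome has -1.13, 0.64 and -0.42 and amino acid breakdown 1.9, -2.12 and -0.29, and column totals turn the circle of fatty acid oxidation and the peroxisome to -0.07.

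Immediate early and acute phase genes did not move as 1 block. Of 37 AP-1 and immediate early genes 10 fell, 2 rose and 25 did not pass (median -0.68), and the list's median at 7 dpci against sham was still 0.51. The count of lower genes was 5 with the summed pairs and 14 under column totals. The AP-1 subunit fosl2 was at 74.3, 64, 78.4 and 88.3 CPM at 1 dpci and 15.3, 8.7, 2.14 and 18.1 CPM at 7 dpci. It fell without overlap (-2.78 ± 0.53, adjusted p = 0.00211), with 3 of the 4 7 dpci libraries above the sham range of 1.17 to 6.29 CPM. The AP-1 subunit junba was at 106, 153, 50.5 and 42.2 CPM at 1 dpci and 3.66, 13.1, 1.28 and 24.4 CPM at 7 dpci (-3.04 ± 0.67, adjusted p = 0.00501). It was highest at 1 dpci in replicates 1 and 2, and higher at 7 dpci in replicates 2 and 4, headed without the letter R, than in 1 and 3. The acute phase transcription factor cebpb was at 398, 431, 167 and 161 CPM at 1 dpci and 72.5, 109.6, 82.1 and 88.1 CPM at 7 dpci, and the groups did not overlap (-1.72 ± 0.34, adjusted p = 0.00264). Of 45 genes of the Il6, Stat3 and acute phase list 10 rose (22.2%) and 5 fell (11.1%), beside 14.6% higher and 8.45% lower among all genes tested. The list has no stable direction, since its median of 0.2 was -0.34 under column totals. Its feedback inhibitor socs3b went from 36.7–57.2 to 2.63–14.2 CPM (-2.54 ± 0.49, adjusted p = 0.00225), and the kinase pim1 from 24.9–90.01 to 5.04–14.3 CPM (-2.38 ± 0.42, adjusted p = 0.00129). Serum amyloid A, saa, an acute phase protein, was at 64.9, 58.9, 15 and 16.9 CPM at 1 dpci and 12.5, 0, 0 and 0 CPM at 7 dpci. Hepcidin, hamp, the hormone that blocks iron release, was at 228, 230.1, 81.9 and 50.2 CPM at 1 dpci and 57.1, 1.48, 0.641 and 1.4 CPM at 7 dpci. In both, 7 dpci replicate 1 stood above the other 7 dpci libraries, and neither passed (adjusted p = 0.0652 and 0.0759), whereas without that library both did (adjusted p = 0.00255 for saa and 0.00201 for hamp).

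Iron genes were divided. Of 22 genes of iron transport and storage 4 fell (18.2%), 3 rose (13.6%) and 15 did not pass, beside 8.45% lower and 14.6% higher among all genes tested. Without 7 dpci replicate 1, 7 of the list were lower. The falls included fthl27, fthl31 and hmox1a, described next, and the rises tfa. The ferritin heavy chain gene fthl27 was at 3304, 4269, 1602 and 1410 CPM at 1 dpci and 142, 459, 67.5 and 153 CPM at 7 dpci. Its 7 dpci levels lay on both sides of the sham range of 151 to 193 CPM and the fall was -3.69 ± 0.53, adjusted p = 0.000427. The related fthl31 went from 9.98–32.8 to 0–2.79 CPM (-3.47 ± 0.74, adjusted p = 0.00432), and reads of such near copies may have been shared. Of the 3 CD59-like entries of clone BX908782, whose mammalian relative shields cells from complement, 2 fell and 1 did not pass. The entry BX908782.2 was at 15530, 20470, 4807 and 4008 CPM at 1 dpci and 1050, 29.2, 42.1 and 24.1 CPM at 7 dpci. Replicate 1 of 7 dpci kept a level far above the sham range of 18.5 to 54 CPM while the other 3 were inside it (-5.29 ± 1.35, adjusted p = 0.0118). The entry BX908782.3 went from 797–2190 to 190–308 CPM (-2.5 ± 0.48, adjusted p = 0.00231). Heme oxygenase hmox1a, which degrades heme, was at 477, 368, 16.2 and 10.9 CPM at 1 dpci and 5.04, 11, 5.34 and 10.8 CPM at 7 dpci. Only 1 dpci replicates 1 and 2 were high, so the call (-4.75 ± 1.18, adjusted p = 0.0101) rests on that pair and the groups overlapped.

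Markers of white blood cells went in both directions. Of 10 neutrophil markers 3 fell (30%) and 1 rose (10%), beside 8.45% lower and 14.6% higher among all genes tested. Their summed level was 542 to 2614 CPM at 1 dpci, 14.5 to 213 CPM at 7 dpci and 29.1 to 69.1 CPM in sham. Most of the sum at 1 dpci was lect2l, a chemotaxin-like gene, at 1976, 2472, 498 and 499 CPM at 1 dpci and 72.2, 14.1, 2.56 and 4.49 CPM at 7 dpci (-5.86 ± 1.26, adjusted p = 0.00436). The defining peroxidase gene mpx was the one that rose, at 2.27, 0.352, 1.3 and 0.502 CPM at 1 dpci and 44.2, 1.8, 0 and 4.91 CPM at 7 dpci, mostly in 7 dpci replicate 1 and with overlapping groups (3.5 ± 1.18, adjusted p = 0.0418). Without that library it did not pass (adjusted p = 0.43). The neutrophil protease npsn was at 0 in 1 dpci replicates 1 and 2 and did not pass (adjusted p = 0.0874), and lyz was not analysed here. Of 21 macrophage markers 4 rose and 4 fell (19% each, beside 14.6% higher and 8.45% lower among all genes tested). Their sum was 1940 to 3080 CPM at 1 dpci and 1480 to 3569 CPM at 7 dpci. An MFAP4-like gene, given in the table as MFAP4 (1 of many), was at 602, 619, 494 and 307 CPM at 1 dpci and 1.22, 15.9, 1.28 and 4.21 CPM at 7 dpci. It fell by far more than the spread of either group (-6.47 ± 0.84, adjusted p = 0.000334), though its near copies make the split of reads uncertain. The antigen presentation gene cd74b was at 0, 0.176, 1.63 and 2.64 CPM at 1 dpci and 85.3, 43.5, 29.3 and 46.7 CPM at 7 dpci, at or near 0 at 1 dpci and within or above the sham range of 22.1 to 63.6 CPM at 7 dpci (5.44 ± 1.05, adjusted p = 0.00238). The defining macrophage gene marco did not pass, at 1.93–15.4 CPM at 1 dpci and 8.24–10.7 CPM at 7 dpci (0.36 ± 0.61, adjusted p = 0.706). The defining genes mpeg1.1 and csf1ra were not analysed here. Of 14 chemokine ligands and receptors 3 rose (21.4%), 1 fell (7.14%) and 10 did not pass. The share lower was near that of all genes tested. The chemokine gene cxcl20 was at 12, 10.4, 13.6 and 13.4 CPM at 1 dpci and 48.4, 44, 71.4 and 49 CPM at 7 dpci, a rise of 2.1 ± 0.28, adjusted p = 0.000343. The chemokine receptor cxcr4b went from 1.13–2.46 to 8.42–27.6 CPM (2.93 ± 0.57, adjusted p = 0.00235). The fall was the ligand ccl34a.4, from 2.11–13.45 to 0.427–3.97 CPM with overlapping groups (-2.28 ± 0.75, adjusted p = 0.0384). The ligand cxcl8a was at 2.64–8.19 CPM at 1 dpci and 0–2.75 CPM at 7 dpci and did not pass (-2.43 ± 0.99, adjusted p = 0.0847). Which cells gave these levels was not tested.

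Matrix and stellate cell genes rose in part. Of 74 genes of the extracellular matrix 17 rose and 3 fell (median 0.72), and of 16 stellate and fibroblast markers 6 rose and 1 fell (median 0.76). The summed pairs of 1 dpci left 7 and 4 higher, and under column totals 12 and 4 were higher and 9 and 2 lower. The summed level of the stellate and fibroblast markers did not rise, at 632 to 6903 CPM at 1 dpci, 379 to 2040 CPM at 7 dpci and 336 to 640 CPM in sham. Decorin, dcn, a matrix proteoglycan, was at 0.303, 1.05, 1.08 and 1 CPM at 1 dpci and 7.48, 10.3, 12.8 and 5.89 CPM at 7 dpci, without overlap (3.36 ± 0.47, adjusted p = 0.000369). Collagen col1a2 went from 6.07–12.9 to 22.7–48.2 CPM (1.79 ± 0.36, adjusted p = 0.00296) and col6a1 from 0.703–3.94 to 10.5–26.8 CPM (2.91 ± 0.59, adjusted p = 0.00307). Fibronectin, fn1b, was at 1004, 746, 920.5 and 1006 CPM at 1 dpci and 1981, 2595, 2411 and 2583 CPM at 7 dpci. It rose by less than the fold of 1.5 (1.38 ± 0.39, adjusted p = 0.0191), but its 4 libraries at 7 dpci were all above the sham range of 532 to 1929 CPM. Smooth muscle actin, acta2, a marker of activated stellate cells and of vessel walls, was at 1.97, 2.81, 4.45 and 3.01 CPM at 1 dpci and 66.4, 31.2, 106 and 15 CPM at 7 dpci. Its 7 dpci libraries were above all 1 dpci libraries and across the sham range of 4.26 to 76.4 CPM (4.14 ± 0.77, adjusted p = 0.00193). The contractile gene tagln rose with it, from 0–2.12 to 10.8–74.4 CPM (4.59 ± 0.83, adjusted p = 0.00154). In 7 dpci replicate 3, where acta2 and tagln were highest, the muscle genes ttn.2 and myhb were also highest, at 129 and 196 CPM, and their part in the result was not tested. The defining stellate gene hand2 did not pass, at 3.03–4.66 CPM at 1 dpci and 2.67–8.7 CPM at 7 dpci (0.57 ± 0.47, adjusted p = 0.397). The stellate genes pdgfra and col1a1a were not analysed here.

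Other cell types were followed by markers of the exocrine pancreas and intestine, red blood cells, endothelium and bile ducts. How the pancreas, intestine and red cell RNA came into the libraries was not tested. Of 24 genes of the exocrine pancreas and intestine 4 rose and 0 fell. That share of 16.7% higher was near the 14.6% among all genes tested. Their summed level was 785 to 6828 CPM at 1 dpci, 3216 to 43560 CPM at 7 dpci and 5570 to 45950 CPM in sham, and 0 were higher with the summed pairs. The digestive amylase amy2a was at 6.22, 41.3, 8.14 and 73.6 CPM at 1 dpci and 115, 264, 60.05 and 2414 CPM at 7 dpci, so the groups overlapped and 7 dpci replicate 4 was the highest (4.46 ± 1.33, adjusted p = 0.0247, or 0.165 without that library). The protease genes prss1 and trypsin-like prss59.2 did not pass (adjusted p = 0.172 and 0.0986). Of 16 red blood cell genes 3 rose (18.8%, also near the share of all genes) and 0 fell. They summed to 568 to 1077 CPM at 1 dpci, 1188 to 5663 CPM at 7 dpci and 1934 to 14040 CPM in sham, and 0 were higher with the summed pairs. The adult globin hbba1 was at 420.1, 383, 834 and 634 CPM at 1 dpci and 946, 4409, 1315 and 993 CPM at 7 dpci, all 7 dpci values above all 1 dpci values but short of the threshold (adjusted p = 0.0593). Of 17 endothelial markers 0 rose and 2 fell, and their sums of 83.4 to 109 CPM at 1 dpci and 58.9 to 108 CPM at 7 dpci overlapped. The defining endothelial genes kdrl and cdh5 did not pass (adjusted p = 0.508 and 0.545), and fli1a and stab2 were not analysed here. Of 21 biliary and epithelial markers 8 rose and 2 fell, but 0 were higher and 2 lower under column totals and likewise with the 1 dpci libraries summed in pairs. The biliary marker anxa4 was at 46.6, 33.2, 168 and 104 CPM at 1 dpci and 194, 469.5, 187 and 117 CPM at 7 dpci (1.46 ± 0.47, adjusted p = 0.0341), with overlap between the groups. The tight junction gene cldnc went from 50.4–197 to 11.1–48.1 CPM (-2.19 ± 0.52, adjusted p = 0.0081). The genes epcam and krt18a.1 were not analysed here. The part of these cells in the hepatocyte results was not tested.

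A minority of cell division genes rose. Of 41 mitotic cyclins and kinases 9 (22%) rose and 0 fell, beside 14.6% higher and 8.45% lower among all genes tested. Without 7 dpci replicate 1, 15 of the 41 were higher. The summed level of this list was 863 to 971 CPM at 1 dpci, 557 to 997 CPM at 7 dpci and 475 to 1022 CPM in sham. The sums of the 2 time points thus overlapped. Under column totals 4 of these genes were higher and 3 lower. Topoisomerase top2a, which untangles replicated DNA, was at 0.758, 0.176, 2.06 and 0.126 CPM at 1 dpci and 1.53, 37.6, 7.05 and 7.86 CPM at 7 dpci. Its 7 dpci replicate 1 lay inside the 1 dpci range and replicate 2 was the highest of all (4.01 ± 0.86, adjusted p = 0.00433). The proliferation marker mki67 was at 2.27, 0.879, 5.64 and 1.38 CPM at 1 dpci and 3.05, 24.6, 6.41 and 9.12 CPM at 7 dpci, also highest in replicate 2 and with overlap (2.05 ± 0.64, adjusted p = 0.0295). It did not pass without replicate 2 (adjusted p = 0.139). The spindle gene nusap1 was at or under 0.126 CPM at 1 dpci and at 1.07, 6.4, 0.855 and 3.65 CPM at 7 dpci, at least 7.107-fold higher against the 3-count floor. Of 46 DNA replication genes 4 rose (8.7%) and 1 fell (2.17%), both smaller shares than among all genes tested. The sliding clamp pcna was at 8.95, 5.98, 44.1 and 20.1 CPM at 1 dpci and 20.9, 79.9, 31.6 and 12.8 CPM at 7 dpci and did not pass (adjusted p = 0.381). The DNA binding subunit rpa1 fell from 24.6–63.3 to 3.09–15.6 CPM (-2.36 ± 0.56, adjusted p = 0.00775). The cell cycle entry gene ccnd1 was at 25.6, 20.7, 74.7 and 86.4 CPM at 1 dpci and 53.4, 30.4, 26.5 and 30.03 CPM at 7 dpci and did not pass (adjusted p = 0.346).

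Some growth factor and clock genes rose, at counts that depended on the processing. Of 19 insulin-like growth factors and binding proteins 6 rose and 1 fell (median 0.95), against 3 higher under column totals and 1 with the 1 dpci libraries summed in pairs. The liver hormone igf1 was at 6.22, 1.76, 20.8 and 29.3 CPM at 1 dpci and 58.3, 41.7, 81.2 and 167 CPM at 7 dpci. All 7 dpci libraries exceeded all 1 dpci libraries and replicate 4 was the highest (2.58 ± 0.69, adjusted p = 0.0149). The related igf2a went from 19–33.2 to 102–264 CPM (2.77 ± 0.54, adjusted p = 0.00241). The binding protein igfbp2b was at 9.25, 8.09, 21.1 and 29 CPM at 1 dpci and 71, 83.2, 108 and 89.7 CPM at 7 dpci, without overlap (2.37 ± 0.54, adjusted p = 0.00616). The fall was the relaxin rln3a, a peptide hormone, at 400.1, 231, 27 and 8.04 CPM at 1 dpci and 0, 1.97, 0 and 0.281 CPM at 7 dpci, on in every 1 dpci library and near 0 afterwards (-8.14 ± 1.59, adjusted p = 0.00249). Of 22 circadian clock genes 6 rose and 0 fell (median 1.17), against 1 higher under column totals and 0 with the summed pairs. The repressor cry1aa went from 12–14.4 to 21.1–34.2 CPM (0.99 ± 0.27, adjusted p = 0.0167) and ciarta from 6.15–11.2 to 13.6–61.5 CPM (1.85 ± 0.51, adjusted p = 0.0178), while per1b did not pass (adjusted p = 0.132). At 7 dpci per1b was at 20.9, 5.58, 28.6 and 2.25 CPM and dbpa at 23.8, 3.12, 23.9 and 4.77 CPM. Both were higher in replicates 1 and 3, headed with the letter R, than in 2 and 4. The clock gene arntl1a ran the other way, at 1.53, 3.12, 1.92 and 4.91 CPM, and cry1aa and ciarta were lowest in replicate 1. What this split stems from was not tested. The hour of collection is not in the labels.

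Several lists held few changed genes or moved in both directions. Of 80 nuclear-encoded subunits of the respiratory chain 6 rose and 3 fell, whereas 4 were higher and 13 lower under column totals. Their median was -0.01 between the time points, -0.54 at 1 dpci against sham and -0.53 at 7 dpci against sham. The list thus stayed, by its median, as far below sham at 7 dpci as at 1 dpci. The 12 mitochondrially encoded genes had medians of 0.42, -0.97 and -0.52 in the same order. Among the nuclear-encoded rises, cox5b2, of cytochrome c oxidase, went from 42.6–80.8 to 202–312 CPM (1.98 ± 0.36, adjusted p = 0.00181). Of 66 lysosome and autophagy genes 2 rose (3.03%) and 3 fell (4.55%), of 115 splicing and RNA-binding factors 6 (5.22%) and 11 (9.57%), and of 44 genes of the NF-kB pathway 2 (4.55%) and 4 (9.09%). Among all genes tested 14.6% were higher and 8.45% lower, so the lower shares of splicing and NF-kB genes were near that of all genes. Of 45 antioxidant genes 8 rose and 8 fell (17.8% each), the share higher being near that of all genes. The peroxide-reducing prdx2 was at 130.3, 146, 112 and 104 CPM at 1 dpci and 487, 1034, 948 and 509 CPM at 7 dpci (2.6 ± 0.46, adjusted p = 0.00139), rising while fthl27 and fthl31 of the same list fell. Of 69 actin cytoskeleton genes 9 rose and 18 fell, and the small GTPase rac1b, which drives actin assembly at the cell edge, went from 53.8–71.5 to 4.76–15.8 CPM (-2.5 ± 0.37, adjusted p = 0.000507). Under column totals 12 lysosome, 26 splicing, 12 antioxidant and 26 actin genes were lower.

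The binding protein igfbp1a was still above its sham range in 3 of the 4 7 dpci libraries. This liver-made inhibitor of insulin-like growth factors was at 687, 574, 758 and 472 CPM at 1 dpci and 128, 1570, 1192 and 1109 CPM at 7 dpci, against 24.4 to 141 CPM in sham. Replicate 1 of 7 dpci was inside the sham range, and the other 3 were above every 1 dpci library. The log2 fold change was 0.68 ± 0.76, adjusted p = 0.538, between the time points, 2.99 at 1 dpci against sham and 3.67 at 7 dpci against sham, the last with an adjusted p of 0.516. The only acutely higher gene with all 4 7 dpci libraries above the sham range, among those not called back, was the chemokine ccl35.1, named after its values were seen. It was at 1.06, 3.34, 18 and 15.3 CPM at 1 dpci and 4.88, 12.8, 3.85 and 3.65 CPM at 7 dpci against 0 to 2.64 CPM in sham (-0.59 ± 0.77, adjusted p = 0.606).

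Some genes went from undetected to detected. Among the 10 largest fitted rises of separated genes with a mean of at least 10 CPM were those of oatx, an organic anion transporter, urahb, of urate breakdown, and dao.3, a D-amino acid oxidase, all with 0 counts in every 1 dpci library, so that the order of their fitted rises is not established. The transporter oatx was at 11, 2.79, 59 and 9.54 CPM at 7 dpci, urahb at 7.17, 29.9, 6.2 and 9.68 CPM and dao.3 at 8.24, 3.45, 35.7 and 2.95 CPM. That makes them at least 48.86-fold, 31.42-fold and 29.87-fold higher against the floor of 3 counts per library. Their sham ranges of 0.203 to 79.1, 1.66 to 16.1 and 0.406 to 71.4 CPM were wide and held every 7 dpci value except that of urahb in replicate 2. The lipogenic regulator thrsp was at 0.91, 1.58, 0.759 and 0.377 CPM at 1 dpci and 687, 6.89, 172 and 3.79 CPM at 7 dpci (7.91 ± 1.91, adjusted p = 0.00841). It was high in 7 dpci replicates 1 and 3, headed with the letter R, and low in 2 and 4, headed without it. What this split stems from was not tested. The sham range of thrsp was wider, 1.01 to 3048 CPM. The cytochrome P450 gene cyp39a1 was at least 28.51-fold higher.

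Other genes went the opposite way. The glutathione breaking enzyme ggt1a was at 32.8, 23.7, 2.6 and 0.502 CPM at 1 dpci and 0, 0, 0 and 0 CPM at 7 dpci, and with 0 counts in all sham libraries too it was at least 29.62-fold lower. The apolipoprotein A-IV-like LOC100005908 was at 1.06, 1.41, 78.9 and 59 CPM at 1 dpci and 0.458, 0.164, 0.214 and 0.14 CPM at 7 dpci, so that 1 dpci replicates 3 and 4 alone carried it (at least 69.75-fold lower). The entry LOC101886665, annotated as growth/differentiation factor 15, a stress hormone in mammals, was at 32.1, 37.3, 40.2 and 35.8 CPM at 1 dpci and 0, 0.164, 0.214 and 0.982 CPM at 7 dpci. It was even across the 1 dpci libraries and at or under 0.982 CPM at 7 dpci (-6.59 ± 1.02, adjusted p = 0.000642).

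Among the called genes with the smallest p, the spread within a time point differed. The chromatin remodeller chd2 was at 5.61, 4.57, 7.49 and 7.66 CPM at 1 dpci and 52.5, 39.2, 70.7 and 71.4 CPM at 7 dpci (3.2 ± 0.28, adjusted p = 2.02e-05), the smallest p of all called genes with a mean of at least 10 CPM. The sham range was 26.2 to 40.5 CPM, and 3 of the 4 7 dpci libraries lay above it. The lipid binding gene sec14l7 was at 0.758, 1.76, 2.82 and 3.27 CPM at 1 dpci and 61, 97.7, 253 and 136 CPM at 7 dpci (5.96 ± 0.64, adjusted p = 8.40e-05). The isochorismatase domain gene isoc2 was at 4.25, 2.64, 4.77 and 2.64 CPM at 1 dpci and 36.9, 46.1, 97.2 and 44.8 CPM at 7 dpci (3.96 ± 0.42, adjusted p = 8.40e-05). Of the falls, rabac1, a membrane traffic gene, was at 67.2, 66.3, 74.3 and 76.2 CPM at 1 dpci and 11.1, 10.5, 11.1 and 9.68 CPM at 7 dpci. Its values varied little within either group (-2.74 ± 0.34, adjusted p = 0.000322).

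Some called genes with a mean of at least 50 CPM had a group mean at 7 dpci nearest to that of sham. Their log2 fold changes of 7 dpci minus sham were within 0.03 units of 0, with SEs of 0.32 to 0.70. These genes were carbonyl reductase cbr1l (-2.36 at 1 dpci and 0 at 7 dpci), igfbp2b (-2.38 and -0.01), the plasma protein itih2 (-2.37 and 0.01), complement c8a (-1.56 and 0.01) and apolipoprotein apoa1b (-1.89 and 0.02) among the rises. Among the falls they were the lysosomal protease ctsla (3.19 and -0.01), eprs (2.35 and 0.01), the phospholipid enzyme lpgat1 (2.61 and -0.02), the mitochondrial protease subunit clpxa (1.88 and 0.03) and ifrd1 (1.52 and -0.03). A mean near sham could rest on 1 library. At 7 dpci lpgat1 was at 32.3, 5.58, 7.48 and 9.82 CPM against 8.45 to 25.3 CPM in sham. Likewise clpxa was at 18.8, 15.8, 15.2 and 42.2 CPM against 11.1 to 34.3 CPM. Among the genes farthest from sham, some rested on a single library. The thyroid hormone carrier gene serpina7 was at 1.21, 1.58, 1.3 and 1.38 CPM at 1 dpci and 1.07, 1.97, 1.28 and 281 CPM at 7 dpci. The chitinase chia.1, a near copy of chia.3, was at 2.12, 2.64, 0.325 and 0 CPM at 1 dpci and 0.458, 25.3, 7.48 and 822 CPM at 7 dpci. In both, 7 dpci replicate 4 was far above the rest, and without it the log2 fold change was 0.08 for serpina7 (adjusted p = 0.943) and 3.17 for chia.1 (adjusted p = 0.279). The transcription factor gene nfil3-2 was at 15, 17.8, 6.94 and 7.03 CPM at 1 dpci and 3.66, 155, 37.8 and 62.3 CPM at 7 dpci against 7 to 20.5 CPM in sham, high in 3 of the 4 7 dpci libraries and lowest of all in replicate 1 (2.47 ± 0.76, adjusted p = 0.0288).

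**Figure D5:**
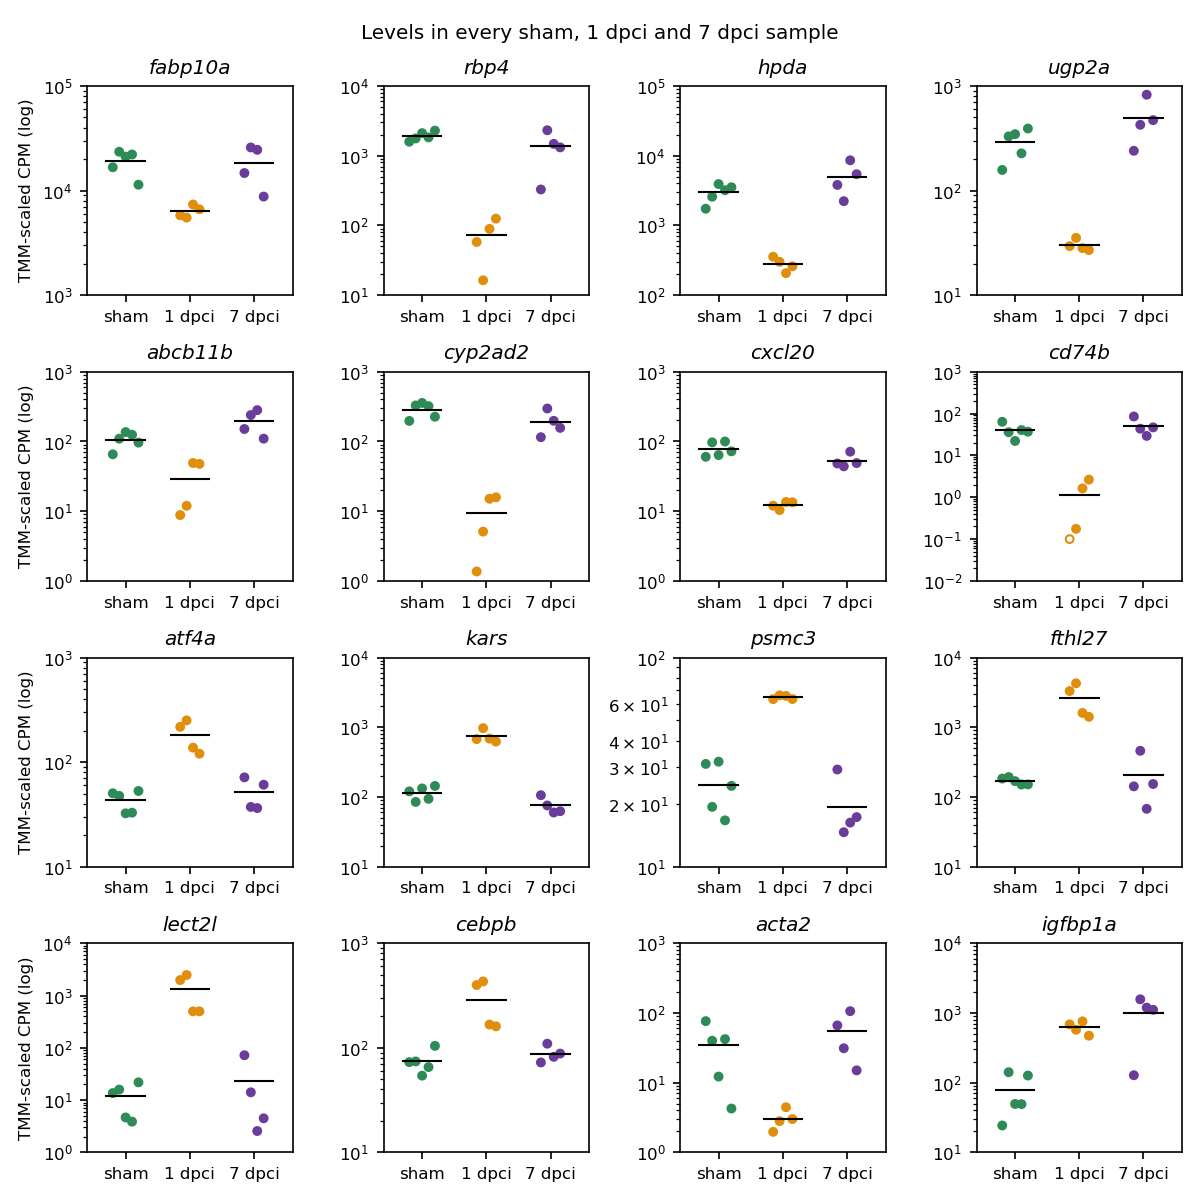
TMM-scaled CPM (y axis, log scale) of 16 genes in every sham (green), 1 dpci (orange) and 7 dpci (purple) library, with black lines at group means, and open points at 0.1 CPM stand for values of 0. The hepatocyte genes of the upper rows lie low at 1 dpci, atf4a, kars, psmc3, fthl27, lect2l and cebpb lie high there, and igfbp1a stays above sham in 3 of the 4 7 dpci libraries.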

How the data were processed

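Bulk RNA-seq of pooled adult zebrafish livers was analysed from the table of the whole series. Per the labels, libraries were made with a stranded total RNA kit and sequenced as 75 bp reads, and the submitters' processing notes list cutadapt 1.16, HISAT2 2.1.0, featureCounts 1.6.0 and limma 3.40.6. The labels also give the molecule as polyA RNA, so how the RNA was selected is uncertain. The authors deposited raw read counts per gene for 8513 entries, with CPM values that divide each count by its column total. Recomputed from the counts, the deposited CPM differed by at most 5e-04. The filter that gave 8513 entries, the use of strand in counting and the treatment of reads with several positions are not given in the sources used here, so reads of near copies, overlapping genes and antisense partners cannot be told apart. The methods name Ensembl build 11, whereas the submitters' processing notes list danRer10, and no coordinates or sequences were used. No column was left out.

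Libraries were grouped by the time in their labels. The counts of all 17 libraries were fitted in edgeR 4.0.16 under R 4.3.3, after filterByExpr (8412 entries kept), with TMM factors and a mean per group, and tested by glmQLFTest with Benjamini-Hochberg adjustment over all entries. Levels are CPM on library sizes multiplied by the TMM factors. A gene passed at an adjusted p of at most 0.05 and was called where it also moved by 1.5 log2 units or more. The methods give these thresholds without saying whether P was adjusted. At depths of 4743533 to 6800961 counts per library, floors of 3 counts cover counting error only. "At least" folds set the mean of the higher group against the mean 3-count floor of the lower one. Correlations and principal components used log2 CPM with a prior count of 2.

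Named genes are the 10 largest rises and falls among called and separated genes with a mean of at least 10 CPM, the 5 smallest p in each direction, the 3 members of each list with the smallest p and its key genes, and the 5 genes in each direction nearest to and farthest from sham with a mean of at least 50 CPM. Not all of them are described, and some are not reported here. Genes outside this rule are marked as chosen after their values were seen. The comparison, the gene lists and the rule were chosen with earlier results of these data known. Lists are described by counts and medians, with no set test.

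The alternatives were DESeq2's size factors, column totals as scaling, DESeq2 1.42.0, the exact test of edgeR, keeping low counts, a fit of the 1 and 7 dpci libraries only, the replicate number as a block, the unadjusted P, a linear fold change of 1.5, the 1 dpci libraries summed in 2 pairs by neighbouring library number (replicates 1 and 2, 3 and 4), only the 7 dpci libraries whose headings carry the letter R (replicates 1 and 3), vitellogenin or mitochondrially encoded genes removed, and each replicate left out in turn. DESeq2 for 7 dpci against sham was added after seeing the data. The tests were tried on simulated data first. Plots used matplotlib 3.10.9 in Python 3.11.15.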

Additional observations from a re-analysis of the deposited data

Results flagged for a closer look

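In 16 of the 92 groups of 4 libraries examined, for the genes that the naming rule took by their size, p or distance from sham, 1 library stood apart from the other 3 by Dixon's criterion at 95%, which chance alone meets in about 5% of groups of unselected, normally distributed values. The rule took genes by size of change and distance from sham, which favours genes with 1 extreme library, so that share is no chance value for these groups. Values are TMM-scaled CPM, and no explanation was tested.

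In 7 dpci replicate 1, BX908782.2 was at 1050 CPM, with the other 7 dpci libraries between 24.1 and 42.1. The chemotaxin-like lect2l was at 72.2 CPM there (others 2.56 to 14.1), lpgat1 at 32.3 CPM (others 5.58 to 9.82) and si:ch211-9d9.1 at 20 CPM (others 0 to 0.561). In the same library ifrd1 was low, at 40.4 CPM (others 72 to 76.8).

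In 7 dpci replicate 2, urahb was at 29.9 CPM (others 6.2 to 9.68) and rln3a at 1.97 CPM (others 0 to 0.281). In 7 dpci replicate 3, ttn.2 was at 129 CPM (others 0.61 to 11.2), isoc2 at 97.2 CPM (others 36.9 to 46.1), oatx at 59 CPM (others 2.79 to 11) and dao.3 at 35.7 CPM (others 2.95 to 8.24). In 7 dpci replicate 4, chia.1 was at 822 CPM (others 0.458 to 25.3), its near copy chia.3 at 359 CPM (others 0 to 14.3), serpina7 at 281 CPM (others 1.07 to 1.97) and clpxa at 42.2 CPM (others 15.2 to 18.8). In 1 dpci replicate 2, si:dkeyp-73b11.8 was at 1.23 CPM (others 0 to 0.152).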

How the results depend on the processing

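The number of genes called higher (848) and lower (347) at 7 dpci against 1 dpci stayed within 1.5 times under every alternative but 4. Column totals gave 453 higher and 847 lower, the 1 dpci libraries summed in 2 pairs 303 and 185, a linear fold change of 1.5 gave 710 lower, and leaving out 7 dpci replicate 1 gave 608 lower. Leaving out 1 library gave 590 to 996 higher and 258 to 608 lower, with the lowest counts without 1 dpci replicate 1 and the highest without 7 dpci replicate 1. DESeq2 called 971 higher and 400 lower. With the replicate block 718 were called higher and 367 lower, of which 697 and 314 were among the main calls. Replicate numbers did not pair the libraries, since the deviations of same-numbered 1 and 7 dpci libraries correlated at 0.091, -0.122, -0.069 and 0.076, and of the 4 numbers only 1 and 4 correlated best with themselves at the other time. Of 128 genes named here that passed and were followed through the alternatives, 121 kept their direction and passed with the block.

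Under column totals, 113 of these 128 genes still passed, with the summed pairs 89, and with only the R-headed 7 dpci libraries 96. Leaving out each 1 or 7 dpci library in turn, 106 passed every time, and 22 failed at least once at adjusted p values of 0.0506 to 0.943, amy2a, anxa4, chia.1, chia.3, ciarta, cry1aa, cyp2k22, cyp7a1, fabp10a, fn1b, ggt1a, ifrd1, igf1, mki67, mpx, mycb, myhb, nfil3-2, pah, prodha, serpina7 and si:ch211-9d9.1. With only the R-headed libraries serpina7 turned to -0.25. List medians turned under column totals for fatty acid oxidation and the peroxisome (-0.07), the Il6 and acute phase list (-0.34), macrophage markers (-0.32) and antioxidant genes (-0.38). The Il6 median was also -0.249 with only the R-headed libraries and -0.023 without 7 dpci replicate 4 (range -0.023 to 0.294 over the fits leaving out 1 library), and the neutrophil median was 0.052 in the fit of 1 and 7 dpci alone. The cause of these shifts was not tested. Genes near 3 counts per library, about 0.421 CPM at 1 dpci, were limited by depth.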

Other observations

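The genes of these paragraphs were chosen after their values were seen. Beside the 835 called rises whose 7 dpci libraries overlapped sham, 9 had all 4 libraries above every sham library. They were FAR2, foxj2, il10ra, mdh1aa, mycb, rnf170, tat, wu:fi04e12 and zgc:162255. The growth regulator mycb was at 27.6, 22.3, 32.4 and 31.6 CPM at 1 dpci and 49.1, 245, 85.7 and 66.9 CPM at 7 dpci against 11.7 to 47 CPM in sham (1.97 ± 0.67, adjusted p = 0.0427), with replicate 2 the highest. Cytosolic malate dehydrogenase, mdh1aa, was at 156, 153, 148 and 129 CPM at 1 dpci and 1145, 1149, 1301 and 1865 CPM at 7 dpci against 303 to 1127 CPM in sham (3.22 ± 0.42, adjusted p = 0.000334). A further 4 called rises had all 7 dpci libraries below every sham library, cyp2k22, lrrc10b, si:dkey-76k16.6 and slc25a32a. The P450 gene cyp2k22 was at 20.3, 16.5, 35.9 and 34.9 CPM at 1 dpci and 45.9, 193, 208 and 98.5 CPM at 7 dpci against 323 to 495 CPM in sham (2.34 ± 0.67, adjusted p = 0.0204). The mitochondrial folate carrier slc25a32a was at 1.21, 2.99, 3.25 and 4.27 CPM at 1 dpci and 16.3, 57.6, 43.2 and 18.2 CPM at 7 dpci against 76 to 159 CPM (3.51 ± 0.6, adjusted p = 0.00111). Of the called falls 4 went below every sham library, btbd9, hsp90aa1.2, ppdpfb and si:rp71-45k5.4. Of these, ppdpfb was at 899, 835, 1353 and 1568 CPM at 1 dpci and 90.02, 217, 59 and 128 CPM at 7 dpci against 249 to 662 CPM in sham (-3.24 ± 0.48, adjusted p = 0.000505).

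Of the acute falls not called back, 9 had all 7 dpci libraries below every sham library, c6ast4, dgat2, dmgdh, hopx, isca2, mb, msrb2, rims2b and zgc:136493. The triglyceride synthase dgat2 was at 109, 144, 110.3 and 145 CPM at 1 dpci and 125, 227, 333 and 242 CPM at 7 dpci against 344 to 1549 CPM in sham (0.87 ± 0.46, adjusted p = 0.172). The exocytosis gene rims2b was at 2.73, 2.99, 4.01 and 3.39 CPM at 1 dpci and 2.44, 12.3, 6.41 and 3.93 CPM at 7 dpci against 21.7 to 102 CPM in sham (0.92 ± 0.53, adjusted p = 0.217). At 7 dpci against sham it had the smallest adjusted p of all genes, 0.168. The ketone body using enzyme aacs was at 9.55, 8.79, 4.99 and 5.65 CPM at 1 dpci and 123, 3.12, 24.8 and 20.4 CPM at 7 dpci and did not pass (adjusted p = 0.176). Its sham libraries ran from 2.23 to 1051 CPM, a wider range than that of either injured group.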
